A study of Mus musculus with 4 samples.

Results

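The genes described here encode caspases, the apoptosome scaffold, death receptors and a caspase inhibitor: Apaf1, Casp2, Casp6, Casp8, Casp9, Fas, Tnfrsf10b and Xiap. These 8 genes were chosen by symbol from a table of 18854 genes, and 7 of them had a row. The expression of Casp8, the initiator caspase of the death receptor route, was not analysed here. The cells were wild-type mouse cortical neurons at 15 days in culture. In the first group they had received the p53 activator Nutlin-3 for 2 days, and in the second the solvent DMSO, with 2 libraries of total RNA per group and ribosomal RNA depleted. The treatment tag of the DMSO samples reads as untreated, so their titles were followed, which give no duration of solvent exposure. Whether each library came from a culture of its own is not stated in the labels, so the spread behind each p-value is that between libraries and may be technical.

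Apoptosis is carried out by caspases, proteases that are made as inactive precursors. In the intrinsic route, cytochrome c released from mitochondria binds Apaf1, which assembles into the apoptosome and activates the initiator caspase-9. In the extrinsic route, death receptors of the tumour necrosis factor receptor family, such as Fas and the TRAIL receptor encoded by Tnfrsf10b, recruit Fadd and activate caspase-8. Both routes lead to the executioner caspases, and Xiap binds and blocks caspase-9 and some of the executioners. Apaf1, Fas and TNFRSF10B are known p53 targets in human or mouse cells, and neurons lower their Apaf1 level as they mature. Nutlin-3 keeps Mdm2 from binding p53 and is used to raise p53.

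The windows around the RefSeq gene starts of 3 members are shown because these genes sit on either side of the comparison, with Apaf1 and Casp9 at higher mean values and Casp2 at lower mean values in Nutlin-3 libraries. Each window runs from 250 bases before to 50 bases after the start, 5′ to 3′ on the gene's strand, in build GRCm38.p6. The capitals mark CATG, the letters at the centre of the strongest p53 binding sites. The Apaf1 window is chr10:91082694-91082993 on the minus strand, that of Casp9 is chr4:141793362-141793661 on the plus strand, and that of Casp2 is chr6:42264735-42265034 on the plus strand.

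Apaf1: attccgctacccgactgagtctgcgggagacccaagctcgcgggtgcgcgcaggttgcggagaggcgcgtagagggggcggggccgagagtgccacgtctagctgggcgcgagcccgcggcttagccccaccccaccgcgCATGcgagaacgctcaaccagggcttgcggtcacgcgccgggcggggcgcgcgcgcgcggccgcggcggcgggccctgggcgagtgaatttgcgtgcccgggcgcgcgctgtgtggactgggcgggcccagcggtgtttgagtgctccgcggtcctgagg
Casp9: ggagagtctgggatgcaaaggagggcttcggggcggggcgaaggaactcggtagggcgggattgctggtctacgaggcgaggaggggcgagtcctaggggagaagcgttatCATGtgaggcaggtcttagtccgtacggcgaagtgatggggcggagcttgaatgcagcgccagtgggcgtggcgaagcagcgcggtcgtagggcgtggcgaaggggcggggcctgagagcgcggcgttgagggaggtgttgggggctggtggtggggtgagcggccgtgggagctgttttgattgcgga
Casp2: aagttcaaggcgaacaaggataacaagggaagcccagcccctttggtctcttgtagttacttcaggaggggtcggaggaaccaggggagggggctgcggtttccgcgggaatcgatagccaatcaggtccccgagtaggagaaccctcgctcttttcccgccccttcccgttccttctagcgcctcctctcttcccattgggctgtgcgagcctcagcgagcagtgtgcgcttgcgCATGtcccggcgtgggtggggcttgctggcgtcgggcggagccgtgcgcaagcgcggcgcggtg

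Each of these 3 windows held 1 CATG, which lay 110 bases before the start in Apaf1, 139 bases before it in Casp9 and 14 bases before it in Casp2. CATG reads the same on both strands. It was in 7 of the 9 windows of members, beside 61.1% of the 32851 windows in the RefSeq table. The windows of Casp6 and Fas held no CATG. The full p53 decamer was in 0 of the 9 windows that matched 7 of the 8 genes, Casp8 among them and Tnfrsf10b not, beside 8.36% of all windows. GGGCGG, the GC box, was searched on both strands and was in 7 of the 9 windows, beside 35.7% of all. The GC content was 74.7% for Apaf1, 66.0% for Casp9 and 63.7% for Casp2, where the median window had 52.7%. These matches describe the letters of the windows and say nothing of binding.

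Expression is given in CPM, reads of a gene scaled to the same total in every library. The libraries held 19065197 and 17716272 reads with Nutlin-3 and 14584247 and 14968028 reads with DMSO. Differences are log2 fold changes of CPM + 1, Nutlin-3 over DMSO, from limma fitted on the 16654 genes that reached 1 CPM in at least 2 libraries. A gene was called at a Benjamini-Hochberg adjusted p under 0.05. All 7 listed members passed the filter on low values. The share of reads in nuclear protein-coding genes was 83.0% and 82.6% in the Nutlin-3 libraries and 73.4% and 75.8% in the DMSO libraries. The median log2 fold change of tested protein-coding genes was 0.09, and -0.05 when their CPM were rescaled to 1 common total over these genes alone, here called protein-coding scaling, so each value below stands beside that shift. In bulk RNA, fewer cells of a type and less RNA per cell cannot be told apart.

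None of the 7 members was called in limma: 0 rose and 0 fell, where 33.2% of all genes tested were called (16.9% higher and 16.3% lower). Of nuclear protein-coding genes, the class of all 7 members, 28.4% were called in the same fit (21.2% higher and 7.19% lower). At an unadjusted p under 0.05 there were 2, Casp9 with a higher and Casp2 with a lower mean in Nutlin-3 libraries, where 42.7% of all genes tested had such a p. The edgeR quasi-likelihood test on recovered whole reads called 1 of the 7, Casp2, which fell there (28.1% of all genes called in that test, 10.7% higher and 17.4% lower), and DESeq2 called 0 (17.5% of genes called, 7.37% higher and 10.1% lower). Nutlin-3 and DMSO libraries did not overlap in 5 of the 7 members, 3 with higher values in Nutlin-3 libraries and 2 with lower. The same held for 67.6% of all genes tested (36.6% higher, 30.9% lower) and for 65.0% of the protein-coding ones (45.2% higher, 19.8% lower). The median log2 fold change of the 7 was 0.03, beside 0.03 over all genes tested and 0.09 over the protein-coding ones.

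**Figure D1:**
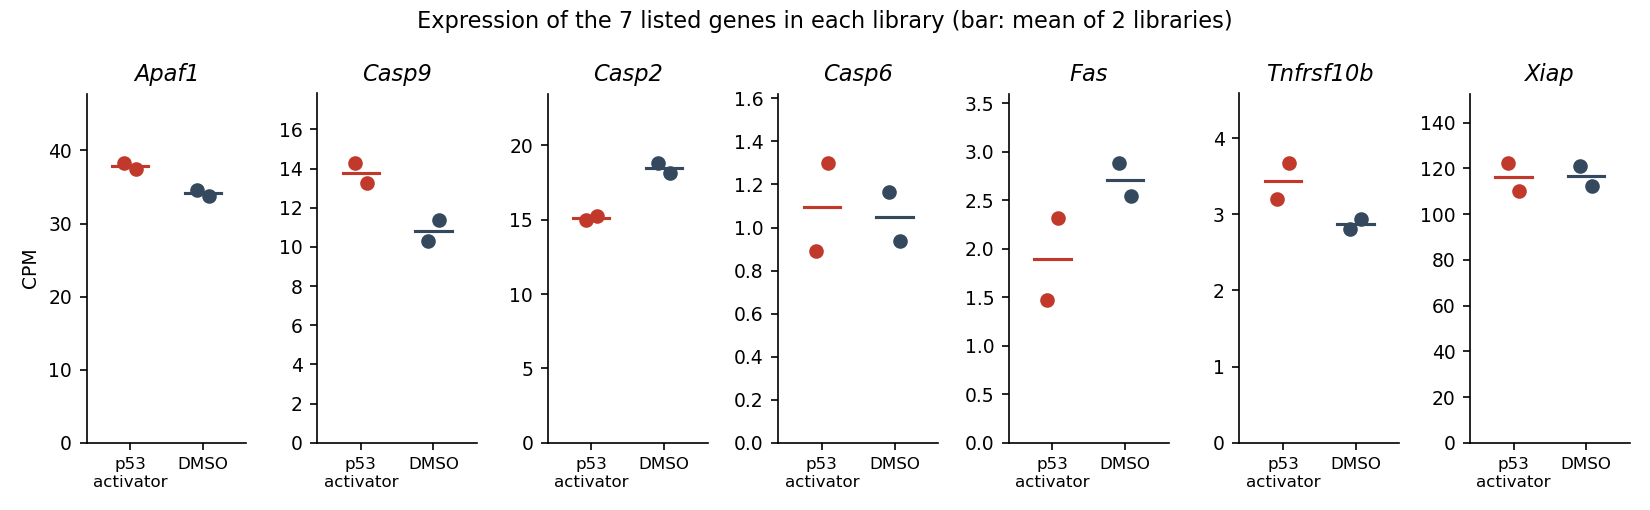
Expression of the 7 listed genes in CPM, 1 point per library, with Nutlin-3 (p53 activator) libraries left of DMSO libraries, a bar at each mean and a separate linear axis for each gene. Apaf1, Casp9 and Tnfrsf10b lie higher in both Nutlin-3 libraries, Casp2 and Fas lie lower, and the groups of Casp6 and Xiap overlap.

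Apaf1, the scaffold of the apoptosome, stood at 38.2 and 37.4 CPM in the Nutlin-3 libraries, against 34.6 and 33.7 CPM in the DMSO libraries. The groups did not overlap. The log2 fold change was 0.14 ± 0.10 (SE, n = 2 libraries per group; limma adjusted p = 0.253), with a 95% interval of -0.05 to 0.33. A 1.5-fold rise of the DMSO level would read 0.57 on this scale, which lies above the interval. With protein-coding scaling, the log2 fold change of Apaf1 was -0.0042.

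Casp9 encodes the initiator caspase that the apoptosome activates. It stood at 14.3 and 13.3 CPM with Nutlin-3, against 10.3 and 11.4 CPM with DMSO, a mean of 13.8 ± 0.709 against 10.8 ± 0.758 CPM (SD, n = 2 each). Both Nutlin-3 libraries lay above both DMSO libraries. The ratio of the means was 1.27 and the log2 fold change 0.32 ± 0.14 (SE, limma adjusted p = 0.0591), so the gene missed the threshold narrowly. With a minimum of 5 CPM, which left 12091 genes tested, Casp9 was called (limma adjusted p = 0.0498; 23.8% of genes called higher). In edgeR it was not called (log2 fold change 0.30, edgeR adjusted p = 0.0874), nor with protein-coding scaling (0.19, limma adjusted p = 0.384). In GENCODE vM21, exons of Ctrc and Cela2a on the opposite strand each share 94 bases with the 5197 exon bases of Casp9, and neither neighbour has a row among the genes analysed.

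Casp2 encodes an initiator caspase that is activated on the PIDDosome, a complex of Pidd1 and Cradd, and not on the apoptosome. It stood at 15.0 and 15.2 CPM with Nutlin-3, against 18.8 and 18.1 CPM with DMSO. The replicates of each group lay close together and the groups did not overlap. The means were 15.1 ± 0.169 and 18.4 ± 0.482 CPM (SD, n = 2 each), a difference of -18.0% of the DMSO mean, and the log2 fold change was -0.27 ± 0.12 (SE, limma adjusted p = 0.0767). In edgeR, where 17.4% of genes fell, Casp2 fell (log2 fold change -0.33, edgeR adjusted p = 0.0311). It also fell with protein-coding scaling, where 17.5% of genes were called, 4.37% higher and 13.1% lower (-0.42, limma adjusted p = 0.0108).

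Because Casp9 and Casp2 had opposite signs, their ratio within each library was taken after these values were seen. It does not depend on how a library is scaled. The CPM of Casp9 divided by that of Casp2 was 0.951 and 0.870 in the Nutlin-3 libraries, against 0.547 and 0.627 in the DMSO libraries. Since the pair was chosen for its opposite signs, the separation of the groups follows from that choice and the ratio is a description only, with no test.

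Casp6 encodes an executioner caspase that cleaves lamins and has been studied in axon degeneration. It was the least expressed member, at 0.892 and 1.30 CPM with Nutlin-3, against 1.17 and 0.935 CPM with DMSO. These values rest on 17 and 23 reads with Nutlin-3 and 17 and 14 reads with DMSO. The groups overlap, and with so few reads only a large difference could have been detected: the 95% interval of its log2 fold change of 0.03 ran from -0.40 to 0.45, where a 1.5-fold rise would read 0.33 and a 2-fold rise 0.60.

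**Figure D2:**
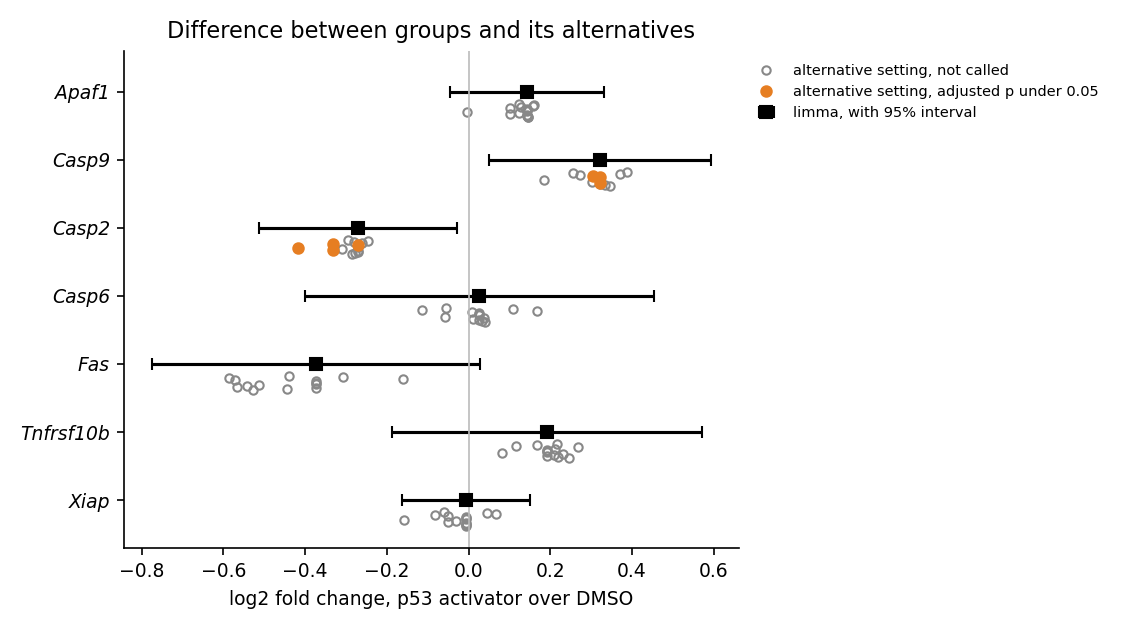
Log2 fold changes of CPM + 1, Nutlin-3 over DMSO, for the 7 listed genes, with black squares for limma and bars for its 95% interval, and circles below each square for the alternative settings (filled where the adjusted p was under 0.05; edgeR and DESeq2 values are on their own count scale). Filled circles appear for Casp9 on the side of higher and for Casp2 on the side of lower values.

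Fas encodes the receptor for Fas ligand. It stood at 1.47 and 2.31 CPM with Nutlin-3, against 2.88 and 2.54 CPM with DMSO, which is 28 and 41 reads against 42 and 38. Both Nutlin-3 libraries were lower, but they differed more from each other than the second of them did from DMSO. The log2 fold change was -0.37 ± 0.20 (SE, limma adjusted p = 0.147), and -0.16 without p53 activator replicate 1. The interval of -0.77 to 0.03 holds no rise of 1.5-fold, which would read 0.45. The summed level of 3 listed microglial markers of 7 was 3.67 and 2.88 CPM with Nutlin-3 and 4.53 and 4.34 CPM with DMSO, and its part in the values of Fas was not tested. Of the microglial markers, Cx3cr1, Tmem119, Itgam and C1qa had no row, and P2ry12, Csf1r and Aif1 lay between 0.452 and 2.88 CPM. P2ry12 stood at 1.63 and 0.960 CPM with Nutlin-3, against 2.88 and 1.67 CPM with DMSO, while Csf1r had the higher mean with Nutlin-3 (1.05 and 1.47 CPM, against 0.754 and 1.34 CPM with DMSO).

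Tnfrsf10b encodes the mouse death receptor for TRAIL. It stood at 3.20 and 3.67 CPM with Nutlin-3, against 2.81 and 2.94 CPM with DMSO, on 61 and 65 reads against 41 and 44. Both Nutlin-3 libraries were slightly higher. The log2 fold change was 0.19 ± 0.19 (SE, limma adjusted p = 0.466). The upper 95% limit of 0.57 lies below the 0.80 that a 2-fold rise would read and above the 0.46 of a 1.5-fold rise.

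Xiap encodes an inhibitor of caspase-9 and of some of the executioners. It was the most abundant member at 122 and 110 CPM with Nutlin-3, against 121 and 112 CPM with DMSO. The groups overlap almost fully. The log2 fold change was -0.01 ± 0.08 (SE, limma adjusted p = 0.953), with a 95% interval of -0.16 to 0.15, and -0.16 with protein-coding scaling (limma adjusted p = 0.133).

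Levels of different genes were compared as CPM per kb of exon, with exon lengths from GENCODE vM21. The order over both groups ran Xiap, Apaf1, Casp2, Casp9, Fas, Tnfrsf10b and Casp6. Dividing by the longest annotated transcript gave the same order of means over all 4 libraries. On that measure Casp2 lay just above Apaf1 in both DMSO libraries, at 5.32 against 5.26 and 5.1304 against 5.1298 CPM per kb. In both Nutlin-3 libraries Apaf1 lay above Casp2. Xiap was at 12.3 ± 0.907 CPM per kb with Nutlin-3 and 12.3 ± 0.651 with DMSO (SD, n = 2 each). Apaf1 followed at 4.19 ± 0.0638 and 3.79 ± 0.0695 CPM per kb. Casp9 averaged 2.65 ± 0.136 CPM per kb with Nutlin-3 and 2.08 ± 0.146 with DMSO, and Casp2 averaged 2.14 ± 0.0240 with Nutlin-3 and 2.61 ± 0.0683 with DMSO. This pair of neighbours thus swaps places between the groups on exon length, but not on the longest transcript, where Casp2 lay above Casp9 in all 4 libraries. Fas, at 0.917 ± 0.290 and 1.31 ± 0.117 CPM per kb, lay above Tnfrsf10b at 0.630 ± 0.0609 and 0.528 ± 0.0166 in every library on exon length, though in Nutlin-3 libraries their gap of means was less than the SD of Fas. On the longest transcript, Fas at 0.904 CPM per kb lay below Tnfrsf10b at 1.01 in p53 activator replicate 1. Casp6 was lowest, at 0.196 ± 0.0515 and 0.188 ± 0.0292 CPM per kb.

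**Figure D3:**
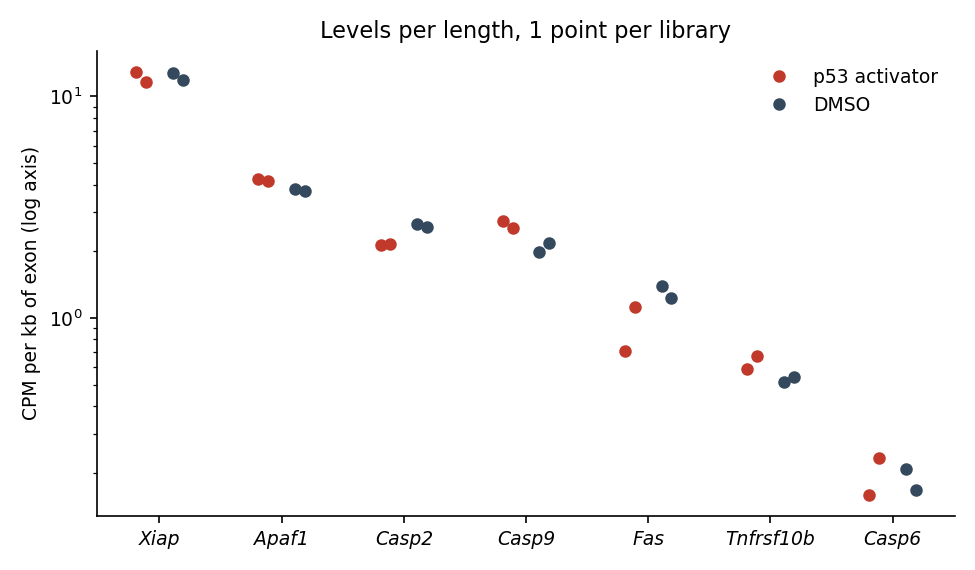
Levels of the 7 listed genes in CPM per kb of exon on a log axis, 1 point per library, with Nutlin-3 libraries left of DMSO libraries for each gene. Xiap is highest at about 12.3, Casp6 lowest at 0.232 or less, and Casp2 and Casp9 swap order between the groups.

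Lists of 63 other genes of these routes were also followed, of which 44 had a row and 40 were tested. In limma 6 rose and 6 fell, where 16.9% of all genes tested rose and 16.3% fell. Among nuclear protein-coding genes, 21.2% rose and 7.19% fell in that fit. There was no overlap between groups for 17 genes with higher and 12 with lower values in Nutlin-3 libraries. The same held for 36.6% and 30.9% of all genes tested, and for 45.2% and 19.8% of the protein-coding ones. The median log2 fold change of the list genes was 0.07, beside 0.03 over all genes tested and 0.09 over the protein-coding ones. With protein-coding scaling, none of the 6 rises was called (limma) and the 6 falls were. In all, 8 of the list genes fell with that scaling, where 13.1% of the genes in that fit fell. In limma without a trend of spread with expression, 0 of the 40 rose and 2, Pycard and Gas2, fell. In that fit 1.81% of all genes tested rose and 11.8% fell. Without DMSO replicate 1, 1 rose and 2 fell (6.83% and 8.68% of all genes). Without p53 activator replicate 2, 3 rose and 1 fell (11.6% and 10.7% of all genes).

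Of 4 caspases on the list outside the members 2 had a row. Casp1, which activates inflammatory cytokines, stood at 1.26 and 1.35 CPM with Nutlin-3, against 1.03 and 0.935 CPM with DMSO, and did not pass the test (log2 fold change 0.22 ± 0.21 SE, limma adjusted p = 0.454). Casp4, another inflammatory caspase, was below the filter, with at most 0.0525 CPM in any library.

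Of 12 genes of the caspase activation platforms 1 rose and 2 fell, where 16.9% of all genes tested rose and 16.3% fell. Of nuclear protein-coding genes, 21.2% rose and 7.19% fell. Cycs, which encodes the cytochrome c that starts apoptosome assembly, rose (31.4 and 26.8 CPM with Nutlin-3, against 23.7 and 24.1 CPM with DMSO; log2 fold change 0.27, limma adjusted p = 0.0416), a call lost in edgeR (adjusted p = 0.0763). Cycs has many processed copies in the mouse genome, and whether the authors' counting shared reads with them was not tested. Ripk1, a kinase that joins death receptors to survival or death signals, fell to 16.9 and 15.1 CPM with Nutlin-3, against 23.2 and 20.1 CPM with DMSO (-0.41, limma adjusted p = 0.00426). Dedd, a protein with a death effector domain, fell as well (-0.38, limma adjusted p = 0.0284). DESeq2 called Ripk1 (adjusted p = 0.0328) but not Dedd (adjusted p = 0.110). The call of Cycs was lost without DMSO replicate 1 (0.25), DMSO replicate 2 (0.28) or p53 activator replicate 1 (0.16). That of Ripk1 was lost without DMSO replicate 1 (-0.31) or p53 activator replicate 2 (-0.34), and that of Dedd without DMSO replicate 1 (-0.39), DMSO replicate 2 (-0.37) or p53 activator replicate 2 (-0.32).

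The 3 tested genes of Xiap's IAP family and the 3 tested IAP antagonists gave 0 calls in limma, edgeR and DESeq2. Over all genes, 33.2% were called in limma, 28.1% in edgeR and 17.5% in DESeq2. At an unadjusted limma p under 0.05 there was 1 gene, Birc6, where 42.7% of all genes tested had such a p. Birc6, a giant ubiquitin ligase, stood at 482 and 500.2 CPM with Nutlin-3, against 412 and 449 CPM with DMSO (log2 fold change 0.19, limma adjusted p = 0.0609). It was called without DMSO replicate 2 (0.25, limma adjusted p = 0.0349). Birc2 had a log2 fold change of 0.0027, Diablo, whose protein displaces caspases from Xiap, 0.0038, and Htra2, a mitochondrial protease, 0.15.

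Of 6 tested death and dependence receptors outside the member list 2 rose and 0 fell. Tnfrsf21, or death receptor 6, which has been studied in axon pruning, stood at 92.6 and 97.8 CPM with Nutlin-3, against 74.9 and 75.8 CPM with DMSO. Its log2 fold change was 0.33 ± 0.08 (SE, limma adjusted p = 0.000676), and edgeR called it too (edgeR adjusted p = 0.00882). Unc5b, a netrin receptor whose human gene is a known p53 target, stood at 6.92 and 8.97 CPM with Nutlin-3, against 5.07 and 6.01 CPM with DMSO (0.45, limma adjusted p = 0.0301), and missed the threshold in edgeR (adjusted p = 0.0616). With protein-coding scaling, Tnfrsf21 (0.18, limma adjusted p = 0.0805) and Unc5b (0.32, adjusted p = 0.183) were not called. The call of Unc5b was also lost without DMSO replicate 1 (0.34) or p53 activator replicate 2 (0.28). That of Tnfrsf21 held without each library in turn. In limma without the trend, neither Tnfrsf21 (limma adjusted p = 0.0693) nor Unc5b (0.0829) was called. Of 6 death ligands 1 had a row, Tnfsf12, at 0.210 and 0.452 CPM with Nutlin-3 and 0.206 and 0.267 CPM with DMSO, below the filter.

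**Figure D4:**
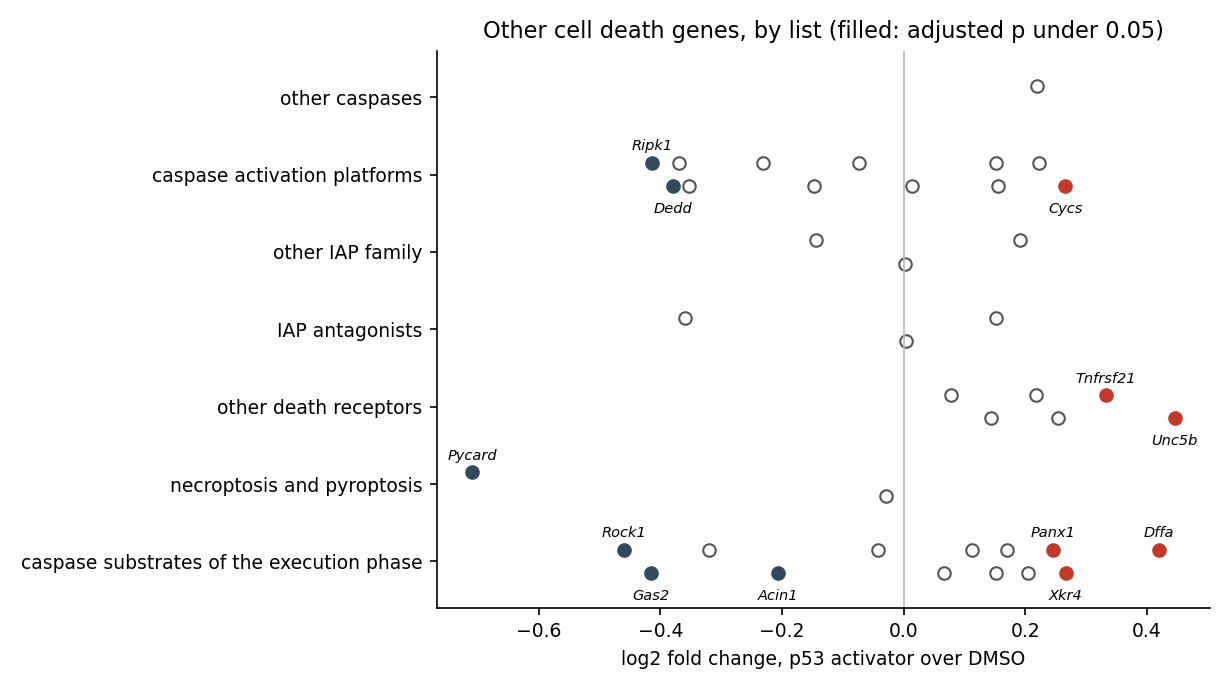
Log2 fold changes of CPM + 1, Nutlin-3 over DMSO, of the 40 tested cell death genes outside the member list, 1 point per gene in rows by list, filled and named where limma's adjusted p was under 0.05. The 6 named points to the right of 0 run up to 0.45 (Unc5b) and the 6 to the left reach -0.71 (Pycard).

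Of 13 substrates and effectors that caspases act on in dying cells 3 rose and 3 fell. The shares were 16.9% and 16.3% of all genes tested, and 21.2% and 7.19% of nuclear protein-coding ones. Dffa, which encodes the inhibitor of the nuclease that cuts DNA in apoptosis, rose (32.9 and 27.2 CPM with Nutlin-3, against 21.1 and 23.1 CPM with DMSO; log2 fold change 0.42, limma adjusted p = 0.00127). Xkr4, a phospholipid scramblase that caspases switch on, rose by 0.27 and Panx1, a membrane channel that they open, rose by 0.25 on the log2 scale, and edgeR called neither. Rock1, a kinase behind membrane blebbing, fell to 47.0 and 39.2 CPM with Nutlin-3, against 61.1 and 57.8 CPM with DMSO (-0.46, limma adjusted p = 2.53e-05). Gas2 (-0.42) and Acin1 (-0.21) fell too, and edgeR called the falls of Rock1, Gas2 and Acin1. It also called the rise of Dffa (edgeR adjusted p = 0.00633), which was not called with protein-coding scaling (limma adjusted p = 0.0592). DESeq2 called Rock1 (adjusted p = 0.00093), Dffa (0.0366) and Xkr4 (0.0340), but not Gas2 (0.0862), Acin1 (0.115) or Panx1 (0.291). Rock1 was called without each library in turn, but not in limma without the trend (limma adjusted p = 0.0529). Without DMSO replicate 1 the calls of Dffa (0.36), Xkr4 (0.19), Panx1 (0.15), Gas2 (-0.34) and Acin1 (-0.13) were lost, without p53 activator replicate 1 those of Dffa (0.29) and Xkr4 (0.26), and without p53 activator replicate 2 those of Xkr4 (0.27), Panx1 (0.12), Gas2 (-0.39) and Acin1 (-0.15).

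Of 2 tested genes of necroptosis and pyroptosis 1 fell, where 16.3% of all genes tested and 7.19% of nuclear protein-coding ones fell. Pycard, the adaptor of inflammasomes, fell to 3.15 and 1.86 CPM with Nutlin-3, against 4.87 and 4.41 CPM with DMSO (log2 fold change -0.71 ± 0.19 SE, limma adjusted p = 0.00248), a call lost without p53 activator replicate 2 (-0.44, limma adjusted p = 0.146). Pycard was called in edgeR (adjusted p = 0.00742) but not in DESeq2 (adjusted p = 0.0541). It is known from microglia. The sum of their listed markers, given above with Fas, was lower in the Nutlin-3 libraries, but Csf1r was not, and the part of microglia in the fall of Pycard was not tested. Gsdme, a pore-forming protein that caspases cleave, stood at 61.6 and 54.5 CPM with Nutlin-3, against 59.8 and 58.5 CPM with DMSO (-0.03, limma adjusted p = 0.827).

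The cultures held neuronal markers at 7121 and 7265 CPM summed with Nutlin-3 and 6218 and 6971 CPM with DMSO over 7 genes. These genes did not move together. Rbfox3 (104 and 99.3 CPM against 125 and 121) and Map2 (3564 and 3602 CPM against 3605 and 4121) were lower with Nutlin-3. Tubb3, Syt1, Snap25, Slc17a7 and Gad1 were higher. Markers of astrocytes summed to 1004 and 1003 CPM against 919 and 899 CPM, and those of the oligodendrocyte lineage to 190 and 187 CPM against 171 and 165 CPM. Endothelial and mural markers summed to at most 7.13 CPM and fibroblast markers to at most 16.3 CPM in any library. Cycling markers summed to 67.0 and 63.6 CPM against 72.2 and 72.9 CPM. Of these, Mki67 and Top2a were lower with Nutlin-3, and the groups of Ccnb1 and Cdk1 overlapped. Pcna was higher (14.1 and 14.1 CPM against 13.1 and 12.2 CPM). The part of non-neuronal cells in the values of the members was not tested.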

How the data were processed

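The authors deposited 1 table of CPM values, 1 column per library, for 18854 genes by symbol. The unit was read from the values, which recovered whole reads for 100% of entries within 0.01 reads. The submitters' processing notes name TopHat2, Cufflinks 2.0.0 and build mm9 without roles. The counting program, its use of strand and the annotation were not stated there. A gene was tested if 2 or more libraries reached 1 CPM (2200 were removed). limma 3.58.1 in R 4.3.3 was fitted to log2(CPM + 1), with a trend of spread with expression, two-sided, with 2 residual and 98.0 prior degrees of freedom, so the error rests mostly on the spread of all genes together. The log scale understates changes of low genes. The fit was tested on simulated data in which far fewer genes changed than were called here. That run is no check of these calls. edgeR 4.0.16 (TMM) and DESeq2 1.42.0 were run on recovered reads. Gene classes and exon lengths came from GENCODE vM21, of another build than mm9, and the printed coordinates are those of the RefSeq windows alone, in GRCm38.p6; 15861 symbols matched 1 gene.

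The members and lists were chosen with earlier results of these data known. Some genes of these routes are not reported here. The genes named in addition to the members were the called genes of each list and, where fewer than 2 were called, the most abundant up to 2. No genes were named for a like pattern, since 4 libraries give no measure of it. Intervals cover the spread between libraries. Alternatives were other pseudocounts (0.1 and 0.5), no filter, a minimum of 5 CPM, the other tests and variance models, protein-coding genes rescaled among themselves, a replicate block and leaving out each library.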

Additional observations from a re-analysis of the deposited data

How the results depend on the processing

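Casp9, Casp2, Fas and Tnfrsf10b kept the sign of their log2 fold change in every alternative run. Casp2 was called in edgeR (-0.33) and with protein-coding scaling (-0.42). Casp9 was called at a minimum of 5 CPM (0.32), where fewer genes were tested and Casp6, Fas and Tnfrsf10b had no value. With the replicate number as a block both were called (the edgeR version was added after the data were seen): Casp9 at 0.32 in limma and 0.30 in edgeR, Casp2 at -0.27 and -0.33, so 1 member rose and 1 fell, where 3705 of all genes rose and 3132 fell in limma, and 2952 rose and 3437 fell in edgeR. Birc6 was also called under the block (limma adjusted p = 0.0120, edgeR 0.0311). Deviations of same-numbered libraries correlated at 0.117 over 16654 genes, but the labels do not say that a number marks a shared culture or day, so the samples were not treated as paired. The sign turned with protein-coding scaling for Apaf1 (-0.0042) and Casp6 (-0.058). This scaling divides by the share of reads in nuclear protein-coding genes, which was higher in the Nutlin-3 libraries. It lowered the log2 fold change of every listed member. Why that share differed between the groups was not tested.

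Leaving out 1 library gave log2 fold changes of 0.12 to 0.16 for Apaf1, 0.26 to 0.39 for Casp9, -0.30 to -0.25 for Casp2, -0.11 to 0.17 for Casp6, -0.59 to -0.16 for Fas, 0.12 to 0.27 for Tnfrsf10b and -0.082 to 0.067 for Xiap, and 0 members were called in any of these fits. Values near 0 turned sign for Birc2 (-0.038 in edgeR, -0.019 in DESeq2, -0.14 with protein-coding scaling, -0.040 in blocked edgeR, -0.092 to 0.097 without 1 library) and Diablo (-0.044, -0.025, -0.14, -0.045, and -0.16 to 0.17). For Gsdme the range without 1 library was -0.11 to 0.058.

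Death pathway genes that rose were 2 in edgeR and 3 in DESeq2 (10.7% and 7.37% of all genes in those tests). With protein-coding scaling and without the trend, 0 rose (4.37% and 1.81% of genes). Those that fell were 7 in edgeR and 8 with protein-coding scaling (17.4% and 13.1% of genes). In DESeq2 2 fell, and without the trend 2 (10.1% and 11.8% of genes). Without 1 library, 1 to 6 rose and 1 to 6 fell. Over all genes, 1786 rose in edgeR, 1156 in DESeq2, 570 with protein-coding scaling and 302 without the trend, while 1776 fell at a minimum of 5 CPM, 1585 in DESeq2 and 1707 with protein-coding scaling. Without 1 library 1138 to 2122 rose and 1445 to 2468 fell. Members called were 0 or 1 in each direction throughout. Depth limits Casp6, Fas and Tnfrsf10b, with 14 to 65 reads per library.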

Other observations

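The partners of Casp2 in the PIDDosome were looked at after the values of Casp2 were seen. Pidd1, the scaffold, stood at 2.15 and 2.43 CPM with Nutlin-3, against 3.09 and 3.41 CPM with DMSO, and Cradd, the adaptor, at 2.47 and 2.26 CPM against 3.02 and 2.87 CPM. Neither was called in limma (log2 fold changes of -0.37 and -0.23, adjusted p = 0.137 and 0.383), in edgeR or with protein-coding scaling. As with Casp2, both Nutlin-3 libraries lay below both DMSO libraries, as they did for 30.9% of all genes tested and 19.8% of the protein-coding ones. Human PIDD1 is a p53 target.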
